A study of Oryctolagus cuniculus with 17 samples.

Results

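The genes described here were 8 genes of the renin-angiotensin system and of the peptidases that process its peptides in the lung, read from RNA sequencing of whole lung from preterm rabbits raised in high or normal oxygen. They were the substrate AGT, the converting enzyme ACE, the receptors AGTR1 and AGTR2, and the peptidases ANPEP, MME, ENPEP and CTSA. Each was found by its human gene name in the count table, and the row with the highest total would have been kept where a name had several rows. Each of the 8 names had a single row at a locus of its own, so 8 of the 13827 rows of the table were members, and all 8 passed the filter on low counts that left 13142 genes for testing. The rule uses gene names alone and no measured value.

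The samples were 17 homogenates of the right lung from New Zealand White rabbit pups delivered preterm by Caesarean section on gestation day 28 and fed a milk replacer. Pups kept in 95% O2 formed the hyperoxia groups HT3 (n = 3), HT5 (n = 2) and HT7 (n = 3), where the number is the postnatal day on which the lung was taken. Pups kept in 21% O2 formed the normoxia groups NT3, NT5 and NT7 (n = 3 each). All pups of both conditions were born preterm, so no term-born group enters the comparison, and whole homogenate mixes all cell types of the organ.

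The renin-angiotensin system is a peptide cascade. Angiotensinogen is cut to angiotensin I, ACE removes a dipeptide to give the vasoconstrictor angiotensin II, and aminopeptidases, carboxypeptidases and neprilysin trim or degrade the products. ACE also destroys bradykinin, and the lung is a known site of this conversion because the enzyme sits on the luminal surface of its dense capillary bed.

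Totals ranged from 13123731 to 18111086 counts per sample with each locus counted once, and the lowest and highest totals were in groups HT5 and NT3. No pair of libraries within a group agreed within sampling noise. Markers of lung were present in every sample, with a summed level of 9 alveolar type 2 genes between 12844 and 33536 CPM (counts per 1000000 counts of the scaled library). HT3 replicate 2 and HT5 replicate 1 stood apart by striated muscle transcripts, at 344 and 305 CPM summed over the list, against at most 43.3 CPM in the other samples. The labels did not say whether pups came from separate litters, so p-values measure the spread between these samples.

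Against normoxia of the same day, ACE and the aminopeptidase ANPEP were lower in hyperoxia on days 5 and 7. On day 7, AGTR1 and MME were lower and AGTR2 was higher than in normoxia. AGT, ENPEP and CTSA passed the test on no day. A gene was called at an adjusted p under 0.05 in the quasi-likelihood test of edgeR with Benjamini-Hochberg adjustment over all genes tested. On day 3, 0 of the 8 genes were called, where 1.03% of all genes tested were, with 1 member at an unadjusted p under 0.05 and 0 called by DESeq2 or voom. On day 5, 2 of 8 were called and both were lower, against 31.3% of all genes called and 15.4% called lower. On day 7, 5 of 8 were called, 4 lower and 1 higher, against 47.4% of all genes called, 23.7% in each direction. The 5 became 2, ACE and ANPEP, without HT7 replicate 1 or HT7 replicate 3, and 3 without NT7 replicate 1. At stricter limits (adjusted p under 0.01 and a log2 fold change beyond 2 in size), ACE and ANPEP remained on both days, where genes past these limits on the lower side made up 0.761% on day 5 and 2.84% on day 7. Both genes kept to these limits on day 7 in every alternative. On day 5, ACE no longer met them without HT5 replicate 2 or NT5 replicate 3, with the replicate block or with only the samples of that day, and ANPEP without HT5 replicate 2 or with only the samples of that day. The median log2 fold change of the 8 genes was -0.23 on day 3, -0.55 on day 5 and -0.54 on day 7, beside 0.00, -0.02 and -0.01 over all genes tested.

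**Figure D1:**
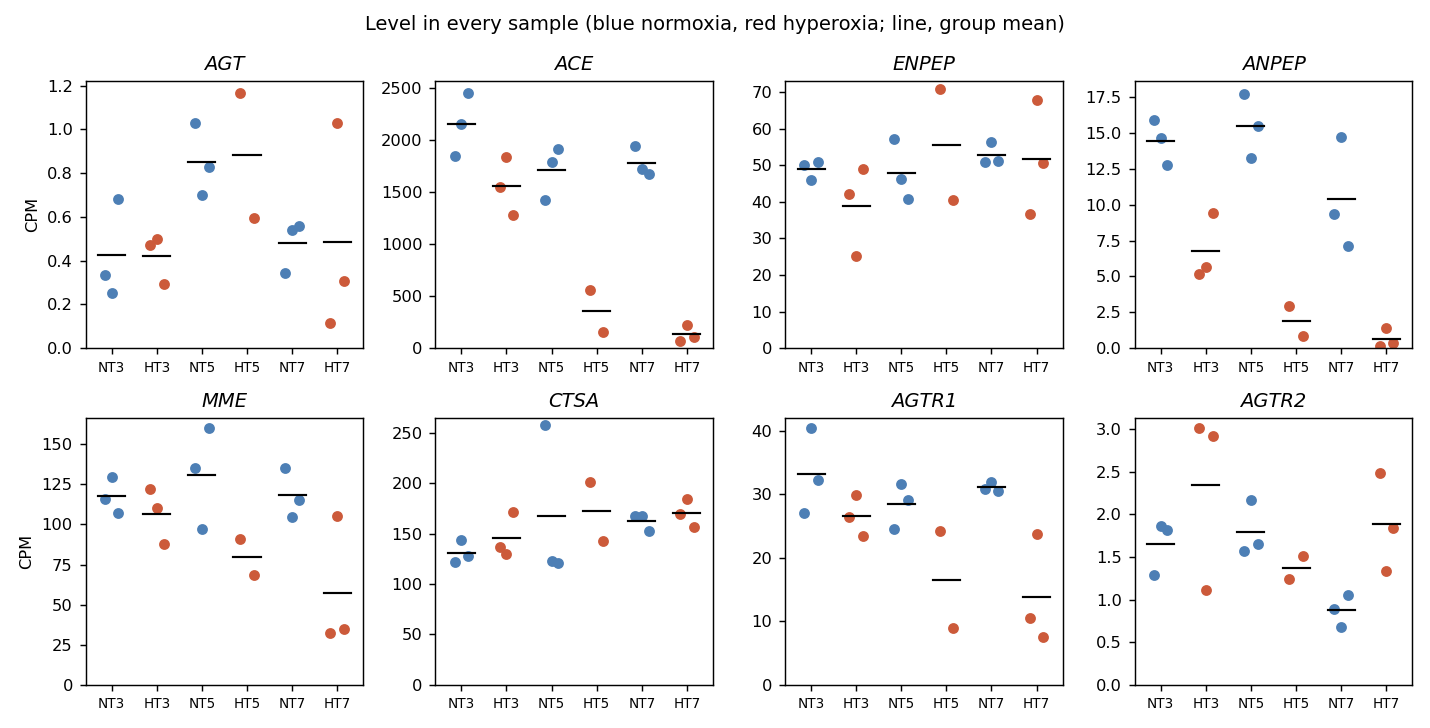
Normalised level of each of the 8 genes in every sample, with CPM on a linear axis that starts at 0 and the 6 groups along the horizontal axis. Blue points are normoxia samples (n = 3 a group), red points are hyperoxia samples (n = 3, 2 and 3 on days 3, 5 and 7), and lines are group means. The HT5 and HT7 samples of ACE and ANPEP lie under all normoxia samples, while ENPEP and CTSA overlap on every day.

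ACE (ENSOCUG00000001555, OryCun2.0 chromosome 19 from 48352084 to 48370630, forward strand) encodes the angiotensin-converting enzyme. In normoxia its level was 1849.8, 2154 and 2449 CPM in NT3, 1428, 1788 and 1918 CPM in NT5, and 1944, 1726 and 1678 CPM in NT7. In hyperoxia it was 1547, 1840.2 and 1281 CPM in HT3, 559 and 158 CPM in HT5, and 69.3, 223 and 107 CPM in HT7. Every hyperoxia sample was lower than every normoxia sample of the same day, on day 3 by a narrow gap and on days 5 and 7 by a wide one. Samples without overlap on the lower side were found for 13.9% of all genes on day 3, 29.2% on day 5 and 27.2% on day 7.

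The mean of ACE fell from 1783 ± 142 CPM in NT7 to 133 ± 80.3 CPM in HT7 (SD, n = 3 each). The log2 fold change of ACE was -0.47 ± 0.40 (SE) on day 3, with an adjusted p of 0.618. On day 5 it was -2.26 ± 0.48, with an adjusted p of 0.00336 and a 95% interval from -3.29 to -1.22, which is a level 4.78-fold lower. On day 7 it was -3.74 ± 0.44, with an adjusted p of 1.58e-05 and a 95% interval from -4.68 to -2.80, which is 13.4-fold lower. Of the 13142 genes tested, 163 had a more negative fold change on day 5 and 47 on day 7. ACE was called on both days whichever sample was left out, on day 5 at the edge of the threshold in the weakest fit. The size on day 5 depended on the 2 HT5 samples, and it was -3.44 without replicate 1 and -1.63 without replicate 2.

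Markers of endothelium were lower in the same samples. Of 10 listed endothelial genes, 1 (TIE1) was called lower on day 3, 7 were called lower and 1 higher on day 5, and 8 were called lower on day 7, with a median log2 fold change of -1.51 on day 7. Over all genes tested, 15.4% were called lower on day 5 and 23.7% on day 7. The 8 endothelial calls of day 5 became 5 without HT5 replicate 2. On day 3, DESeq2 and the fit of only the samples of that day each called 4 endothelial genes, 1 higher and 3 lower, and 2 lung capillary genes, both lower, where edgeR called 0 of the capillary list. Their summed level was 2715 to 3262 CPM in NT7 and 1106 to 1497 CPM in HT7, and 2688 to 3285 CPM in NT5 and 1592 to 1713 CPM in HT5. PECAM1, a junction protein of all endothelium, was not called and had a log2 fold change of -0.05 on day 7, and no listed marker was at 0 in any group. Of 7 markers of lung capillary cells, 6 were called lower on days 5 and 7, and their summed level was 1145 to 1649 CPM in NT7 and 234 to 363 CPM in HT7. Fewer cells of a type and less RNA per cell cannot be told apart in these bulk samples.

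Relative to these markers, ACE was lower in hyperoxia on days 5 and 7, and the groups overlapped on day 3. Per 100 CPM of the endothelial list, ACE was 71.6, 52.9 and 57.0 CPM in NT7 and 4.63, 20.2 and 7.40 CPM in HT7. In HT5 it was 32.7 and 9.90 CPM, against 53.1, 54.4 and 67.7 CPM in NT5. On day 3 the samples overlapped, at 55.5, 57.3 and 46.3 CPM in HT3 and 51.7, 66.8 and 74.4 CPM in NT3. Per 100 CPM of the capillary list they also overlapped on day 3, at 106.7, 142 and 114 CPM in HT3 and 87.9, 110.3 and 115 CPM in NT3. On that scale ACE was 24.8, 61.6 and 45.8 CPM in HT7 against 169.7, 104.7 and 106.3 CPM in NT7, and 77.7 and 28.8 CPM in HT5 against 94.4, 102.2 and 95.9 CPM in NT5. The HT7 and HT5 values were under all normoxia values of their day on both scales, so the fall of ACE exceeded that of the summed markers. These ratios carried no test. The fall of ACE did not exceed that of every single marker. On day 7 the log2 fold changes of the capillary markers ranged from -3.76 (APLNR) to -0.26 (APLN), beside -3.74 for ACE. On day 5, APLNR (-2.94), CA4 (-2.53) and KIT (-2.37) were more negative than ACE (-2.26), and the others of that list were not.

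**Figure D2:**
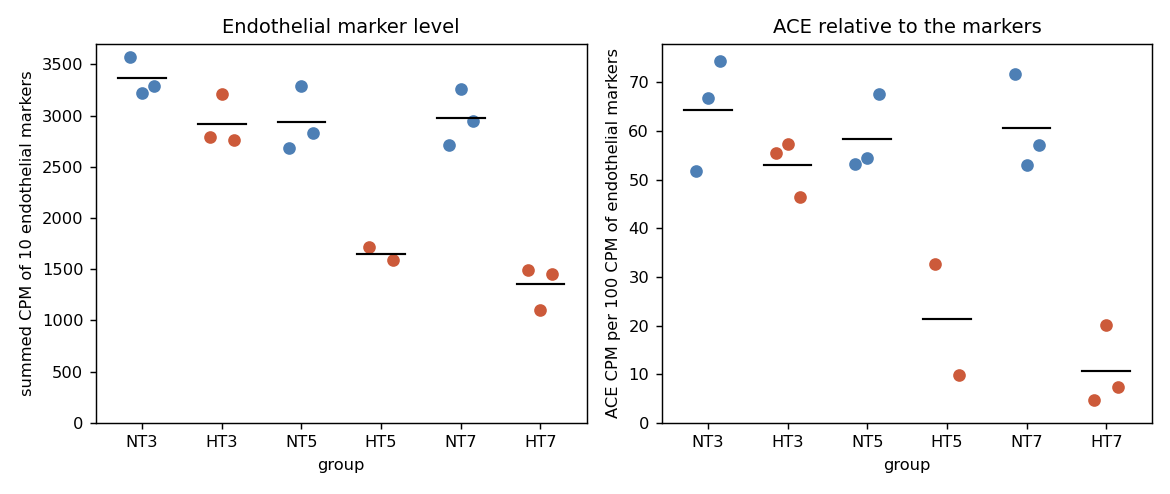
The left panel plots the summed CPM of 10 endothelial markers in each sample by group and the right panel ACE per 100 CPM of these markers, with normoxia in blue, hyperoxia in red and lines at group means. HT7 samples lie at 1106 to 1497 CPM of markers, under all NT7 samples, and at 4.63 to 20.2 CPM of ACE per 100 CPM of markers, also under all NT7 samples.

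ANPEP (ENSOCUG00000017659, OryCun2.0 scaffold GL018738 from 1837519 to 1842909, forward strand) encodes aminopeptidase N, a membrane enzyme that shortens angiotensin III and many other peptides. Its level in normoxia was 15.9, 14.7 and 12.8 CPM in NT3, 17.8, 13.2 and 15.5 CPM in NT5, and 9.36, 14.7 and 7.10 CPM in NT7. In hyperoxia it was 5.20, 5.65 and 9.45 CPM in HT3, 2.96 and 0.812 CPM in HT5, and 0.173, 1.39 and 0.359 CPM in HT7. The hyperoxia samples were below all normoxia samples on each day, as for 13.9%, 29.2% and 27.2% of all genes on days 3, 5 and 7. The HT7 values rested on 3, 23 and 7 counts.

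The log2 fold change of ANPEP on day 3 was -1.09 ± 0.46 (SE), with an unadjusted p of 0.0325 and an adjusted p of 0.273, so it was not called. On day 5 it was -3.07 ± 0.61, with an adjusted p of 0.00207, and on day 7 it was -4.03 ± 0.57, with an adjusted p of 6.38e-05. These are levels 8.38-fold and 16.4-fold lower, and 53 and 32 genes had a more negative fold change. ANPEP was called on both days whichever sample was left out, on day 5 with little margin in the weakest fit. On day 7 its fold change was -5.22 without HT7 replicate 2, and on day 5 it was -4.24 without HT5 replicate 1 and -2.40 without HT5 replicate 2.

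MME (ENSOCUG00000017924, OryCun2.0 chromosome 14 from 49297255 to 49394081, forward strand) encodes neprilysin, which cleaves angiotensin I, bradykinin and natriuretic peptides. It was at 135, 105 and 115 CPM in NT7 and at 32.4, 105 and 34.8 CPM in HT7. Replicates 1 and 3 of HT7 were low and replicate 2 lay inside the NT7 range. In HT5 it was 91.0 and 68.4 CPM, under the NT5 values of 135, 97.3 and 160.2 CPM, as for 29.2% of all genes. In HT3 and NT3 it ranged from 88.0 to 122 and from 107 to 130 CPM. The log2 fold change was -0.14 on day 3, -0.72 on day 5 (adjusted p = 0.173) and -1.04 ± 0.35 (SE) on day 7 (adjusted p = 0.0223). The day 7 call of MME was lost without HT7 replicate 1 (adjusted p = 0.0957), HT7 replicate 3 (0.104) or NT7 replicate 1 (0.0666), and when only the samples of day 7 were fitted (0.0896). Without HT7 replicate 2 the fold change was -1.81.

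ENPEP (ENSOCUG00000016264, OryCun2.0 chromosome 15 from 38926370 to 39017176, reverse strand) encodes aminopeptidase A, which turns angiotensin II into angiotensin III. Its values were 36.7, 68.0 and 50.6 CPM in HT7 and 50.9, 56.5 and 51.1 CPM in NT7, and the groups overlapped on each day. Its log2 fold change was -0.34 on day 3, 0.21 on day 5 and -0.03 on day 7. The 95% interval on day 7 was -0.57 to 0.51. A change of 1 log2 unit in either direction lay outside that interval.

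CTSA (ENSOCUG00000000740, OryCun2.0 scaffold GL018725 from 885533 to 891224, forward strand) encodes cathepsin A, a lysosomal carboxypeptidase that can remove the last residue of angiotensin I. It was at 169.6, 184 and 157 CPM in HT7 and at 168, 167 and 153 CPM in NT7. The log2 fold change of CTSA was 0.16, 0.04 and 0.07 on days 3, 5 and 7, with a day 7 interval from -0.43 to 0.57. On day 5, NT5 replicate 1 was at 258 CPM while the other NT5 samples were at 123 and 121 CPM. Without that sample CTSA was called higher on day 5 (log2 fold change 0.50, adjusted p = 0.0350).

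AGT (ENSOCUG00000000478, OryCun2.0 chromosome 16 from 37238032 to 37248641, forward strand), whose protein angiotensinogen is the substrate of the cascade and is made chiefly by liver, was close to the detection limit. It had 2 to 17 counts in every sample, or 0.115 to 1.17 CPM. Its log2 fold change was 0.00, 0.03 and -0.01 on the 3 days, with an interval on day 7 from -1.33 to 1.30. A difference under about that size was not detectable at this depth.

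AGTR1 (ENSOCUG00000025557, OryCun2.0 chromosome 14 from 42501436 to 42740193, forward strand) encodes the receptor through which angiotensin II constricts vessels. It was tightly grouped in NT7, at 30.8, 31.9 and 30.5 CPM, and lower in HT7, at 10.5, 23.7 and 7.48 CPM. In HT5 it was 24.2 and 8.87 CPM, just under the NT5 values of 24.5, 31.6 and 29.1 CPM, and in HT3 it was 23.4 to 29.9 CPM against 27.1 to 40.4 CPM in NT3. The groups did not overlap on days 5 and 7, as for 29.2% and 27.2% of all genes on the lower side. The spread among hyperoxia samples was wide on both days. The log2 fold change was -0.32 on day 3, -0.79 on day 5 (adjusted p = 0.160) and -1.17 ± 0.37 (SE) on day 7 (adjusted p = 0.0171).

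The day 7 call of AGTR1 was lost without HT7 replicate 1 (adjusted p = 0.0716) or HT7 replicate 3 (0.0786), and without HT7 replicate 2 the fold change was -1.78. On day 5 the gene was called without HT5 replicate 1 (-1.68, adjusted p = 0.0169). AGTR1 is carried in lung by pericytes, and of 8 pericyte markers 5 were called lower and 1 higher on day 7, beside 23.7% of all genes called in each direction, with a median log2 fold change of -0.79 and summed levels of 571 to 631 CPM in HT7 and 734 to 1015 CPM in NT7. Per 100 CPM of that list, AGTR1 was 1.84, 3.89 and 1.19 CPM in HT7 and 4.20, 3.14 and 3.67 CPM in NT7, and these ranges overlapped. No pericyte marker was at 0 in any group, and the part of these cells in the AGTR1 result was not tested.

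AGTR2 (ENSOCUG00000012363, OryCun2.0 chromosome X from 64767894 to 64768985, forward strand) encodes the second angiotensin II receptor, which is known for high levels in fetal tissue and for actions that oppose AGTR1. It was a low gene, with 10 to 51 counts per sample. It was at 2.48, 1.33 and 1.84 CPM in HT7 and at 0.889, 0.675 and 1.06 CPM in NT7, so the 2 groups did not overlap, as for 27.3% of all genes on the higher side. The NT7 samples were the low ones in the series, and HT7 overlapped NT3 (1.29, 1.86 and 1.82 CPM) and NT5 (1.58, 2.16 and 1.65 CPM), with HT7 replicate 1 above both. HT3 was at 3.02, 1.11 and 2.92 CPM and HT5 at 1.24 and 1.51 CPM. The HT5 samples were under all NT5 samples, the reverse of day 7, as for 29.2% of all genes on the lower side. Within hyperoxia, the log2 fold change of AGTR2 in HT7 against HT3 was -0.31.

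The log2 fold change of AGTR2 was 0.50 on day 3, -0.38 on day 5 and 1.10 ± 0.39 (SE) on day 7, with an adjusted p on day 7 of 0.0310. This was the least stable of the 5 calls of day 7. It was lost without HT7 replicate 1 (adjusted p = 0.123), HT7 replicate 3 (0.0577), NT7 replicate 1 (0.0670) or NT7 replicate 2 (0.108), in limma voom (0.0653) and with the replicate number as a block (0.0604).

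**Figure D3:**
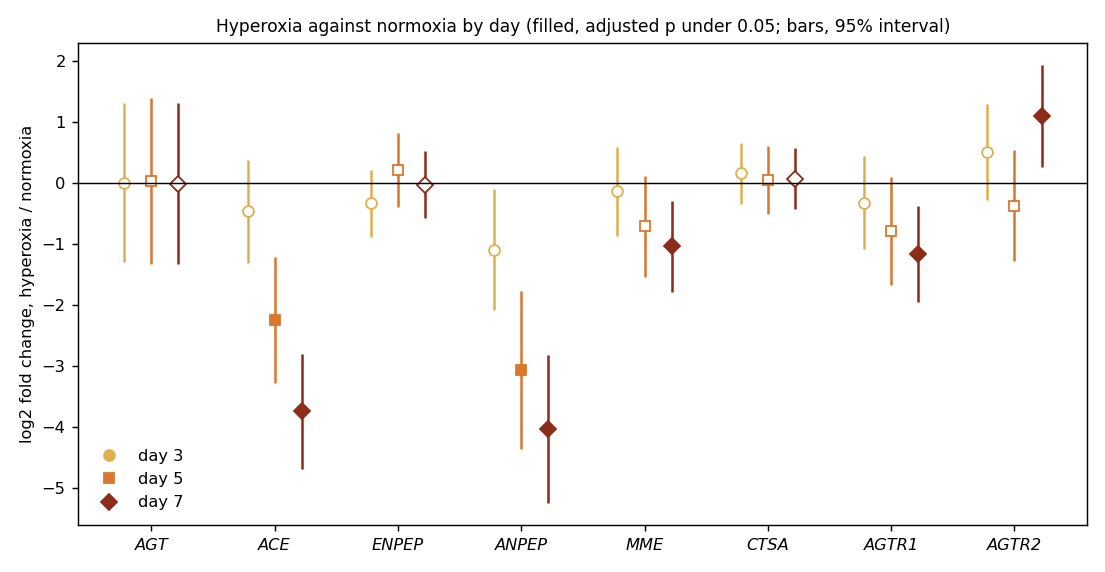
Log2 fold change of hyperoxia over normoxia for the 8 genes on days 3, 5 and 7, with 95% intervals from the edgeR fit. Filled symbols are called at an adjusted p under 0.05 and open ones are not. ACE and ANPEP step down from day 3 to day 7, and ENPEP, CTSA and AGT stay near 0.

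The question whether the response grew with exposure was tested as the difference between the day 7 and day 3 effects, which draws on the same samples as the daily comparisons. For ACE this difference was -3.27 ± 0.57 (SE, adjusted p = 0.00238) on the log2 scale, and for ANPEP it was -2.94 ± 0.73 (adjusted p = 0.0124). Both were called in every fit that left out 1 sample. These 2 of 8 genes stood beside 20.5% of all genes called for this difference, 11% to the lower side. The other 6 were not called, and AGTR1 (-1.46, adjusted p = 0.0174) and MME (-1.67, 0.000859) were called without HT7 replicate 2.

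Within hyperoxia, ACE was lower in HT7 than in HT3 by a log2 fold change of -3.55 (adjusted p = 3.70e-05) and ANPEP by -3.41 (0.000288). AGTR1 (-0.94, adjusted p = 0.0498) and MME (-0.89, 0.0478) were called at the edge of the threshold, so 4 of 8 were called all to the lower side, where 44.3% of all genes were called and 22% to the lower side. HT7 and HT3 did not overlap for ACE and ANPEP, as for 24.8% of all genes on the lower side. AGTR1 was not called when libraries were scaled by totals only (0.0676) or without the low count filter (0.0508), and leaving out any 1 of the 6 samples other than HT7 replicate 2 ended its call. MME was not called with totals only (0.0721) or with the replicate block (0.0543), and its call ended without HT3 replicate 1, HT3 replicate 2, HT7 replicate 1 or HT7 replicate 3. Within normoxia, between NT3 and NT7, edgeR called 0 of the 8 members and 0 of all genes tested, with 824 genes at an unadjusted p under 0.05 and 39 genes called by DESeq2. AGTR2 had a log2 fold change of -0.92 there, with an unadjusted p of 0.034, an adjusted p of 0.740 and no overlap between the 2 groups, as for 8.74% of all genes on the lower side.

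By group mean, ACE was ordered NT3, NT7, NT5, HT3, HT5 and HT7 from high to low. Neighbours in this order overlapped except HT3 and HT5. ANPEP was ordered NT5, NT3, NT7, HT3, HT5 and HT7, and there too only HT3 and HT5 were free of overlap among neighbours. For AGTR2 the gap lay between HT5 and NT7, and in the other 5 genes every pair of neighbours overlapped.

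HT7 replicate 2 had the highest level of its group, and HT5 replicate 1 was above HT5 replicate 2, for 7 of the 8 genes, with AGTR2 the exception in both groups. Levels are not compared between genes, since the table gives no transcript lengths.

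The genes closest to each called member in pattern were found by the root mean square difference of centred log2 CPM over the 17 samples, among 11500 genes of sufficient level. For ACE they were LUZP2 (0.343), OLFML2A (0.347) and NPNT (0.349), where the median over genes was 1.68. For ANPEP they were PHEX (0.461), TRIL (0.464) and APLNR (0.507), with a median of 1.86. The other called genes varied less, and their nearest genes stood less far from the rest. These were ZNF365 (0.227), IRX5 (0.228) and TSPAN8 (0.231) for AGTR1 with a median of 0.735, MIGA1 (0.236), SGCD (0.240) and TMEM143 (0.245) for MME with a median of 0.686, and ADAT2 (0.368), MRPL48 (0.394) and ACTG1 (0.395) for AGTR2 with a median of 0.611.

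Other genes of the renin-angiotensin cascade changed in both directions. Of 18 genes in the list, 10 were in the table and 9 were tested. On day 3, 1 rose, on day 5, 3 rose and 1 fell, and on day 7, 3 rose and 3 fell, with median log2 fold changes of -0.05, 0.11 and 0.04. Of all genes tested, 1.03%, 31.3% and 47.4% were called on these days. The 4 calls of day 5 became 2 without HT5 replicate 2 or NT5 replicate 3. MAS1, the receptor of a vasodilator angiotensin fragment, had at most 2 counts in any sample and was not tested.

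PRCP, a carboxypeptidase that inactivates angiotensin II, was at 27.7, 56.0 and 35.1 CPM in HT7 and at 149, 128 and 195 CPM in NT7. It fell on day 5 (log2 fold change -1.65, adjusted p = 0.00349) and day 7 (-1.99, 0.000142), and the day 5 call was lost without HT5 replicate 2 (0.0728). LNPEP, the receptor of angiotensin IV, chosen for mention after its values were seen, fell on day 7 with a log2 fold change of -0.57 and an adjusted p of 0.0352. Its groups overlapped, at 24.0 to 45.1 CPM in HT7 and 43.5 to 54.2 CPM in NT7, and its call was not followed in the alternative fits.

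The 3 genes that rose on days 5 and 7 were ATP6AP2, NLN and DPP3. ATP6AP2, an accessory protein of the vacuolar proton pump, was at 165, 156 and 169 CPM in HT7 and at 109, 117 and 112 CPM in NT7. Its log2 fold change was 0.46 on day 3 (adjusted p = 0.0490), 0.42 on day 5 (0.0130) and 0.54 on day 7 (0.000647), and the day 3 call was lost with the replicate block (0.0861), without the low count filter (0.0515) and whichever sample of that day was left out. NLN, a metallopeptidase that cuts angiotensin I, was at 65.2, 65.9 and 73.8 CPM in HT7 and at 40.0, 39.5 and 40.8 CPM in NT7. It rose by 0.75 on day 5 (adjusted p = 0.000277) and 0.77 on day 7 (2.30e-05). DPP3 rose by 0.76 and 0.83 (adjusted p = 0.0221 and 0.00506), but its locus carries 2 rows of the table, and on day 5 the call was lost without either HT5 sample and without NT5 replicate 2 or 3.

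Among other peptidases of the cell surface and lysosome, more genes fell than rose on day 7. Of 20 genes in the list, 17 were in the table and 16 were tested, and DPP4 was not analysed here. On day 3, 1 rose, on day 5, 2 rose and 4 fell, and on day 7, 4 rose and 8 fell, with a median log2 fold change on day 7 of -0.52. Beside these, 31.3% of all genes were called on day 5 and 47.4% on day 7. The 6 calls of day 5 became 2 without HT5 replicate 2, and the 12 of day 7 became 7, with 2 higher and 5 lower, without HT7 replicate 1. ECE1, the endothelin-converting enzyme, was at 516, 366 and 369.6 CPM in HT7 and at 1005, 1007 and 928 CPM in NT7, a log2 fold change of -1.23 ± 0.14 (SE, adjusted p = 1.07e-05).

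GGT1, which breaks down extracellular glutathione, was called higher on all 3 days, with calls on days 3 and 5 that depended on the fit. It was at 5.19, 5.26 and 6.10 CPM in HT7 and at 1.85, 1.69 and 1.25 CPM in NT7. Its log2 fold change was 1.68 on day 3 (adjusted p = 0.0146), 1.31 on day 5 (0.00767) and 1.79 on day 7 (0.000217), and the day 3 call was lost with the replicate block (0.0790) and without HT3 replicate 2 (0.0770), NT3 replicate 2 (0.0981) or NT3 replicate 3 (0.0782). The day 5 call of GGT1 was lost with the block (0.0727) and when only the samples of that day were fitted (0.0542). DPEP1, a membrane dipeptidase, fell on day 5 (-1.17, adjusted p = 0.0183) and day 7 (-1.45, 0.00105), and its day 5 call was lost without HT5 replicate 1, HT5 replicate 2 or NT5 replicate 3. CPE, a carboxypeptidase of secretory granules, fell on day 5 (-1.69, adjusted p = 0.00278), which was lost without HT5 replicate 2 (0.0547).

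The receptors of bradykinin, the other main peptide that ACE removes, rose on day 7. Of 12 listed receptor partners and kinin genes, 8 were tested, and none was called on day 3 by edgeR and 1 by DESeq2, while 2 rose and 1 fell on each of days 5 and 7, beside 31.3% and 47.4% of all genes called. The 3 calls of day 5 became 1 without HT5 replicate 2, and the 3 of day 7 became 5 without HT7 replicate 2. BDKRB1, the inducible kinin receptor, was at 8.48, 2.84 and 11.01 CPM in HT7 and at 0.410, 0.0675 and 0.249 CPM in NT7. Its log2 fold change was 3.47 ± 0.95 (SE) on day 5 (adjusted p = 0.0134, lost without HT5 replicate 2) and 4.90 ± 0.86 on day 7 (0.000334). BDKRB2, the constitutive kinin receptor, was at 16.1, 12.3 and 29.5 CPM in HT7 and at 9.02, 5.40 and 4.36 CPM in NT7, with a log2 fold change of 1.63 ± 0.32 on day 7 (adjusted p = 0.000788). Its day 5 call (0.96, 0.0462) was lost in limma voom (0.0633), with the replicate block (0.140), without HT5 replicate 2 and without each NT5 sample in turn.

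ARRB1, which encodes an arrestin that uncouples receptors such as AGTR1 from their G proteins, was the listed gene that fell. It was at 62.1, 64.1 and 51.4 CPM in HT7 and at 293, 215 and 207 CPM in NT7. Its log2 fold change was -1.44 on day 5 (adjusted p = 0.000183) and -2.01 on day 7 (1.54e-06).

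**Figure D4:**
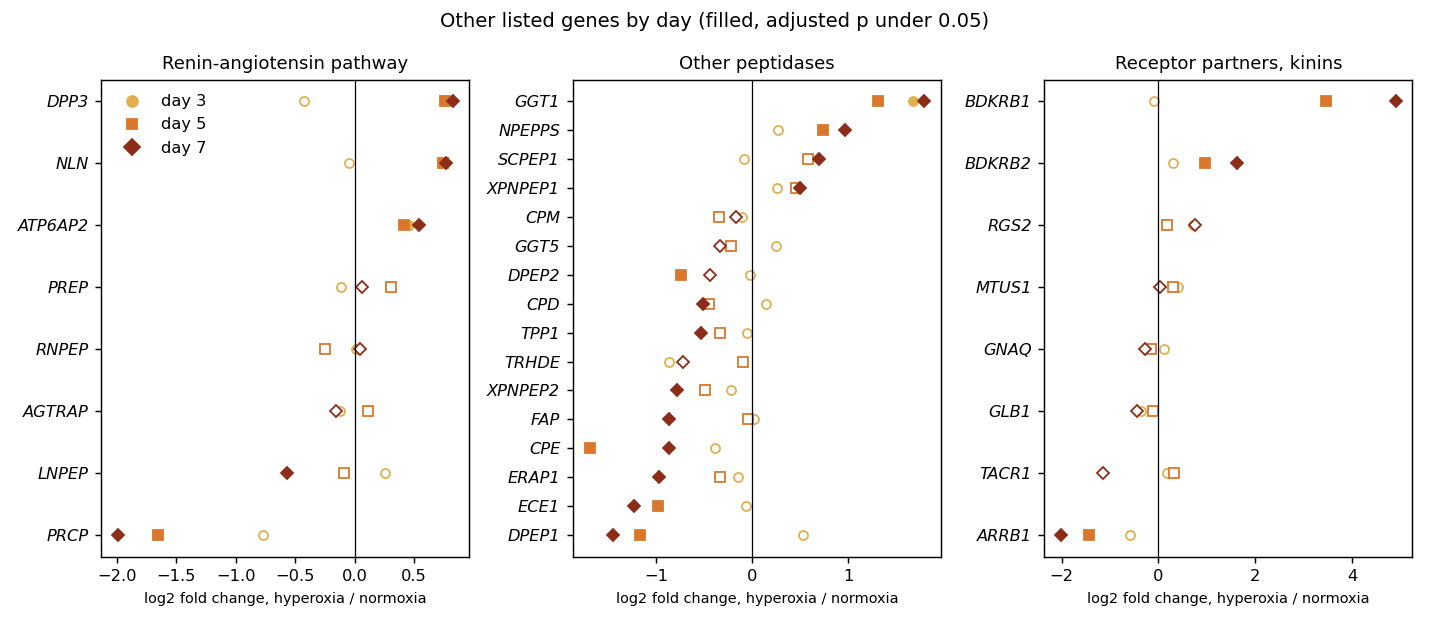
Log2 fold change of hyperoxia over normoxia (horizontal axis) on days 3, 5 and 7 for tested genes of the 3 pathway lists, with 1 panel per list, its own scale in each and no error bars. Filled symbols are called at an adjusted p under 0.05 and open ones are not. On day 7, BDKRB1 lies farthest to the right, at 4.90, and ARRB1, at -2.01, and PRCP, at -1.99, farthest to the left among the genes drawn.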

How the data were processed

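RNA of 17 right-lung homogenates was sequenced, and the authors deposited raw counts per gene in 1 table. The submitters' processing notes name FastQC, STAR 2.7.10a and the rabbit build OryCun2.0, and the program that counted reads is not given in the sources used here. The table lists 13827 rows at 13313 loci. 948 rows share 434 loci, where several human names stand for 1 rabbit locus. Depth is given with each locus counted once. Library sizes for CPM and the test were sums over all tested rows (14506754 to 19958516), repeated rows included, and 1 row per locus was an alternative. 44 rows had no gene name.

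Counts were tested in edgeR 4.0.16 (R 4.3.3; quasi-likelihood F test, TMM scaling, filterByExpr, prior count 0.125) with 6 group means over all 17 samples. This left 13142 genes tested and 685 not tested, with p-values adjusted by Benjamini-Hochberg over all tested genes. CPM are TMM-scaled, the SE is the fold change divided by the square root of F, and errors of means are SD. Depth was 13123731 to 18111086 counts per sample, and intervals on counts cover counting error only. The script was tested on simulated data with 200 changed genes.

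The same replicate numbers occur in the groups. Correlations of same-numbered deviations were 0.166, 0.131 and 0.199 on day 3, all over 0.1, so the replicate block was fitted there as the paired alternative. They were 0.264 and 0.141 on day 5, 0.174, 0.109 and 0.0695 on day 7, and 0.180, 0.144 and 0.270 between NT3 and NT7. The block called 37 genes on day 3 in place of 136, called no member either way, and ended the day 3 calls of GGT1 and ATP6AP2.

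Alternatives were DESeq2 1.42.0, limma 3.58.1 voom, other scaling, filters and prior counts, fits of the compared samples only, the replicate block and leaving out each sample. Members and lists were chosen with earlier results of these data known. Named genes were all members, MAS1 and DPP4 where listed and, per pathway list and day, the 3 called genes of largest fold change, plus the 3 genes most alike in pattern to each called member. The ratios to marker sums were added after seeing the data. Some genes of the lists are counted in them but not reported here by name. No sequence is shown.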

Additional observations from a re-analysis of the deposited data

Results flagged for a closer look

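ACE and ANPEP were flagged because their response differed between days by a test of the difference itself. Of all genes tested, 20.5% were called for this difference, 11% to the lower side. The hyperoxia effect on day 7 minus that on day 3 was -3.27 ± 0.57 (SE) for ACE and -2.94 ± 0.73 for ANPEP on the log2 scale, with adjusted p of 0.00238 and 0.0124 in edgeR's quasi-likelihood test. All 3 HT7 samples were below all 3 HT3 samples for both genes, as for 24.8% of all genes on the lower side.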

How the results depend on the processing

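ACE and ANPEP kept their direction and their calls on days 5 and 7 under all alternatives run, though the weakest fits of day 5 came close to the threshold. With ACE called on day 7 in every fit, its fold change ranged from -4.33 to -3.43 when 1 sample was left out, and that of ANPEP from -5.22 to -3.59. On day 3 the 136 genes called became 505 in DESeq2, 37 with the replicate block, 281 with only the samples compared, and 31 to 116 with 1 sample left out, and the 7 genes past the stricter limits became 19, 3 (voom), 2 (block) and 2 to 7. On day 5 the 4115 genes called became 2412 with only the samples compared and 1158 to 4286 with 1 sample left out, the 208 past the stricter limits became 135 (block), 11 (only the samples compared) and 46 to 376, and the members called were 2 to 3. On day 7, 5181 to 6611 genes, 470 to 818 past the stricter limits and 2 to 5 members were called with 1 sample left out. For the day 7 minus day 3 difference these were 1702 to 3811, 101 to 410 and 2 to 4. For HT7 against HT3 they were 4654 to 6226, 353 to 656 and 2 to 4, with 2 members by library totals only. For NT7 against NT3, DESeq2 called 39 genes, 1 past the stricter limits.

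Signs changed for uncalled genes alone. AGT became -0.049 in voom and -0.0092 with the block on day 5, -0.27 in voom for HT7 against HT3, and with library totals only -0.010 on day 3, 0.038 on day 7 and 0.049 for the difference between days. ENPEP became 0.017 on day 7 with library totals only, and CTSA -0.070 on day 5 with the block. With 1 sample left out, AGT ranged from -0.27 to 0.51 on day 3, -0.51 to 0.44 on day 5, -1.13 to 0.44 on day 7, -1.14 to 0.44 for the difference, -0.95 to 0.63 for HT7 against HT3 and -0.077 to 0.70 for NT7 against NT3. ENPEP ranged from -0.25 to 0.54 on day 5 and -0.27 to 0.17 on day 7, CTSA from -0.23 to 0.50 on day 5 and -0.16 to 0.043 for the difference, and for NT7 against NT3 AGTR1 from -0.22 to 0.068 and MME from -0.10 to 0.091. The cause was not tested. Counts of 2 to 17 limit AGT, and 2 HT5 samples limit day 5.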

Other observations

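Cell types other than endothelium and pericytes were followed beside the pathway by their marker lists, and these values have no part in the comparisons above. Over all genes tested, 15.4% were called lower and 31.3% in either direction on day 5, and 23.7% lower and 47.4% in either direction on day 7. Of 8 alveolar type 1 markers, 5 fell on day 5 and on day 7, with median log2 fold changes of -1.24 and -2.22. The 5 calls of day 5 became 1 without HT5 replicate 2 and 3 with only the samples of that day, and those of day 7 became 8 without HT7 replicate 2. Of 9 alveolar type 2 markers, none was called on day 5 by edgeR and 1 by DESeq2, and on day 7, 1 rose and 2 fell, which became 5 calls without HT7 replicate 2 and 1 without NT7 replicate 2. Of 9 fibroblast markers, 5 fell on day 5, which became 1 without HT5 replicate 2, and on day 7, 1 rose and 4 fell. Of 7 smooth muscle markers, 1 rose and 5 fell on day 5, 6 calls that became 3 without HT5 replicate 2, and 1 rose and 3 fell on day 7.

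Among blood cells, 5 of 6 lymphocyte markers fell on day 7, with a median of -2.56, and 3 of 4 erythroid markers fell. With 1 sample left out these became 4 to 6 and 2 to 3 calls. The lymphocyte markers were at low levels, with sums of 3.33 to 4.60 CPM in HT7 and 9.71 to 19.2 CPM in NT7. Of 8 macrophage markers, CD68, whose locus carries 7 rows of the table, and CD163 were called higher on day 5, which became 1 call without either HT5 sample and 4 without NT5 replicate 1, and on day 7, 3 rose and 1 fell, which became 2 calls without NT7 replicate 2 or NT7 replicate 3. Of 6 neutrophil markers, CSF3R and CXCR2 were called higher on day 5, which became 0 calls without either HT5 sample and without NT5 replicate 2 or 3. On day 7, 1 rose and 1 fell, and these 2 calls became 0 or 1 whichever sample was left out. Of 6 striated muscle markers tested, 3 rose on day 5, where HT5 replicate 1 alone held 305 CPM, and these became 0 calls without that sample or NT5 replicate 2 and 1 without NT5 replicate 1 or 3. CD68, CD163, CSF3R, CXCR2, TIE1, APLN, CA4 and KIT were chosen for mention after their values were seen.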
